A study of Mus musculus with 2 samples.

Results

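The regions described are the broad domains of trimethylated lysine 36 of histone H3 (H3K36me3) that ran for more than 50 kb in mouse embryonic stem (ES) cells. They were found by joining the peaks of the pooled replicates wherever the gap between neighbours was at most 3 kb, and were chosen by their joined length alone, keeping what exceeded 50 kb. This left 719 of 22002 domains, or 3.27%. The 719 domains held 21456 of the 113324 pooled peaks (18.9%) and 41.2 of the 163.5 Mb in peaks (25.2%), within a span of 50.5 Mb. Both replicates' reads enter the pooled peaks that chose the domains, so the values below are a description and no test was made on them.

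The mark was mapped by chromatin immunoprecipitation and sequencing in E14TG2a.4, a male ES line of the mouse strain 129/Ola, labelled as embryonic with an age of 3.5 days. The 2 replicates are separate biological samples of 1 untreated group, and no genotype or treatment differed between them. The line was derived from 1 donor, so the replicates show the spread between cultures of a single line. The deposited sets give called peaks without read counts, so the depth of either replicate is unknown. All positions are on mm10, and genes are those of GENCODE M21.

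H3K36me3 is laid down by the methyltransferase SETD2, which travels with elongating RNA polymerase II, and it is therefore known as a mark of transcribed gene bodies that is sparse at promoters. Readers of the mark include the PWWP domains of the de novo DNA methyltransferases, Tudor domain proteins of the polycomb machinery and a chromodomain protein of histone acetylation complexes. In a population of cells, a mark in fewer cells and a weaker mark in every cell cannot be told apart.

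The defining markers of the line fitted its label. All 10 ES cell markers, among them the pluripotency factor genes Pou5f1, Sox2, Nanog and Esrrb, were marked, a word used throughout for genes with 10% or more of their bases in peaks in both replicates taken singly. Their covered shares ran from 37.1 to 84.9% in replicate 1 and from 33.8 to 81.6% in replicate 2. For scale, 1553 of the 5003 coding genes longer than 50 kb were marked. The marked share over all coding genes is not given here, so the 10 of 10 lacks a background over genes of all lengths. None of the 10 fibroblast or feeder markers, the 6 primitive endoderm markers or the 4 trophoblast markers was marked, and all of these genes had no base in a pooled peak. In the longer lists of other cell types counted below, 1 gene each was marked in 3 of the 4 lists.

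Sequences from 4 of the longest domains are shown because they let the strongest point of a domain be read beside an interruption inside it. Each window is 150 bases long and is read from the RefSeq assembly GRCm38.p6 on the strand of the named gene. The first windows are centred on the summit of the peak with the highest fold enrichment (the authors' value) in the domain. Capitals mark bases in an annotated exon. The Dnah8 window, chr17:30655164-30655313 (+), and the Enox1 window, chr14:77577887-77578036 (+), lay in introns. The Tns3 window, chr11:8492105-8492254 (-), lay wholly in an exon of that gene. The window of the Rian domain, chr12:109592730-109592879 (+), lay in the exon of Rtl1, which is transcribed from the other strand, and ran into the hairpin of miR-127 at chr12:109592846-109592915.
Dnah8 summit: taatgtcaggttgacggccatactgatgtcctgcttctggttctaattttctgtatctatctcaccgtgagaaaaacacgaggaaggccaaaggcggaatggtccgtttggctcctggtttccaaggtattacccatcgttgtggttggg
Rian domain summit: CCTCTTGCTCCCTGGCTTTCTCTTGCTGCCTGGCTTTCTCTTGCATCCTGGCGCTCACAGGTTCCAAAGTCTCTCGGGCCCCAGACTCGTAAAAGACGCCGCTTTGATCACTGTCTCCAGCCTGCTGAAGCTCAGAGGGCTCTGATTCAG
Tns3 summit: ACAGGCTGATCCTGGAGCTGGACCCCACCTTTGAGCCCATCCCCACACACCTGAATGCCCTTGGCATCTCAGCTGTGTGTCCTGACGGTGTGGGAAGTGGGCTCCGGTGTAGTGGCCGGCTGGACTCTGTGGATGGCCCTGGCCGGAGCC
Enox1 summit: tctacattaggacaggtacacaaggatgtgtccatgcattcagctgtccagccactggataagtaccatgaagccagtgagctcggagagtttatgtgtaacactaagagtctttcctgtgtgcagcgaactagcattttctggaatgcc
None of the 150 bases of these summit windows was soft-masked, that is, annotated as repeat. The fold enrichment of the peak was 11.4 for Dnah8, 11.8 for the Rian domain, 16.9 for Tns3 and 12.7 for Enox1.

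The windows below lie in the middle of the longest gap of a domain, and here capitals mark bases that are not soft-masked. The Tns3 gap was 1538 bp long with 99.5% of its bases soft-masked, and its window at chr11:8475560-8475709 (-) was repeat throughout. The gap of the Rian domain was 2894 bp long with 19.6% soft-masked, and 10 of 150 bases were masked in its window at chr12:109703185-109703334 (+).
Tns3 gap: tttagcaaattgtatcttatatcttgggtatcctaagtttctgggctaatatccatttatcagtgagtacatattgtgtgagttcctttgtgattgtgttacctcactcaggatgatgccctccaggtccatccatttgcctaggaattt
Rian domain gap: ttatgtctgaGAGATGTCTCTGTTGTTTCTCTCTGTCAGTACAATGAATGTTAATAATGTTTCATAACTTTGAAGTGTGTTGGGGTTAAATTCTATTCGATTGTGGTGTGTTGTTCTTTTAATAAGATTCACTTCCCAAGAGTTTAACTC
These 2 are shown as the domains with the most repeat in the gap and with the longest gap. The longest gap of the Dnah8 domain was 2695 bp with 40.8% soft-masked, and that of the Enox1 domain was 1474 bp with 15.1%. The gaps of these 4 domains thus ranged from nearly all repeat to mostly unmasked sequence. Over all domains the difference was one of degree, as described with the gaps below.

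The median length was 63.4 kb, with a range from 50.1 to 248.2 kb. Of the 719 domains, 300 (41.7%) were 60 kb or shorter, 67 exceeded 100 kb and 8 exceeded 150 kb. A domain held a median of 29 pooled peaks (range 2 to 96). The domains just inside the threshold were led by Heatr3 at 50.2 kb, Tarbp1 at 50.2 kb, Pggt1b at 50.1 kb, Nln at 50.1 kb and Tnks at 50.1 kb. Those just outside were led by Nid1 at 49.97 kb, Ddx42 at 49.95 kb, Phip at 49.95 kb, Il4i1 at 49.95 kb and Brd1 at 49.94 kb. Their shares in peaks, averaged over the replicates, ran from 36.4 to 82.1% inside and from 57.5 to 83.7% outside. These ranges overlapped, so the threshold divides a continuous series.

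The longest domain, chr17:30628751-30876974, covered 98.1% of the body of Dnah8, a heavy chain of the axonemal dynein motors that drive cilia and sperm tails. In replicate 1, 80.2% of its 248.2 kb lay in peaks, and in replicate 2, 72.0%. It began 4.40 kb inside the gene start and stopped 0.391 kb before the gene end. A further annotated gene model, AC174471.1, also spans the whole of this domain. Among the 15 axonemal dynein heavy chain genes Dnah8 was the 1 marked gene. The next highest, Dnah17, had 9.54% of its body in peaks in replicate 1 and 8.17% in replicate 2, and 7 of the 15 had no base in a peak in either replicate.

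The third longest domain, 188.0 kb, lay along Tns3, which encodes a focal adhesion protein. It began 48.2 kb inside the gene and ended 3.30 kb past it, with 90.9% in peaks in replicate 1 and 86.7% in replicate 2. The domain of Enox1, which encodes a cell surface oxidase, was 166.8 kb long and began 399.8 kb inside a gene of 565.0 kb. In it 89.5% lay in peaks in replicate 1 and 84.02% in replicate 2. Both domains thus left the 5′ part of their gene outside.

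The Cit domain was 160.8 kb long and held 98.2% of the gene, which encodes the citron kinase of cytokinesis. Its share in peaks was 69.3% in replicate 1 and 67.3% in replicate 2. The Dst domain, along the cytoskeletal linker dystonin, was 157.1 kb long and had 82.0 and 80.9% in peaks in replicates 1 and 2. It began 244.0 kb inside the gene and ended 0.666 kb past the gene. The Vps13d domain, along a lipid transfer protein gene, was 150.9 kb long with 69.4 and 65.7% in peaks, and stopped 68.0 kb before the gene end.

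The Utrn domain, along the dystrophin homologue utrophin, was 150.7 kb long with 76.8% in peaks in replicate 1 and 71.2% in replicate 2. It began 322.5 kb inside the gene. The ninth domain was 148.2 kb long with 89.8 and 79.1% in peaks and held 97.5% of the body of Ctbp2, which encodes a transcriptional corepressor. The annotation also has a model of 2961 kb under the name Fgfr2 that reads across this gene and leads the domain by its bases. The domain lies at the start of that model, far from the end. The Adam23 domain was 147.6 kb long with 90.4 and 85.0% in peaks and lay along 98.1% of this gene of the ADAM membrane protein family. Of the 10 longest domains, 9 had a higher share in replicate 1 and the Rian domain had a higher share in replicate 2.

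**Figure D1:**
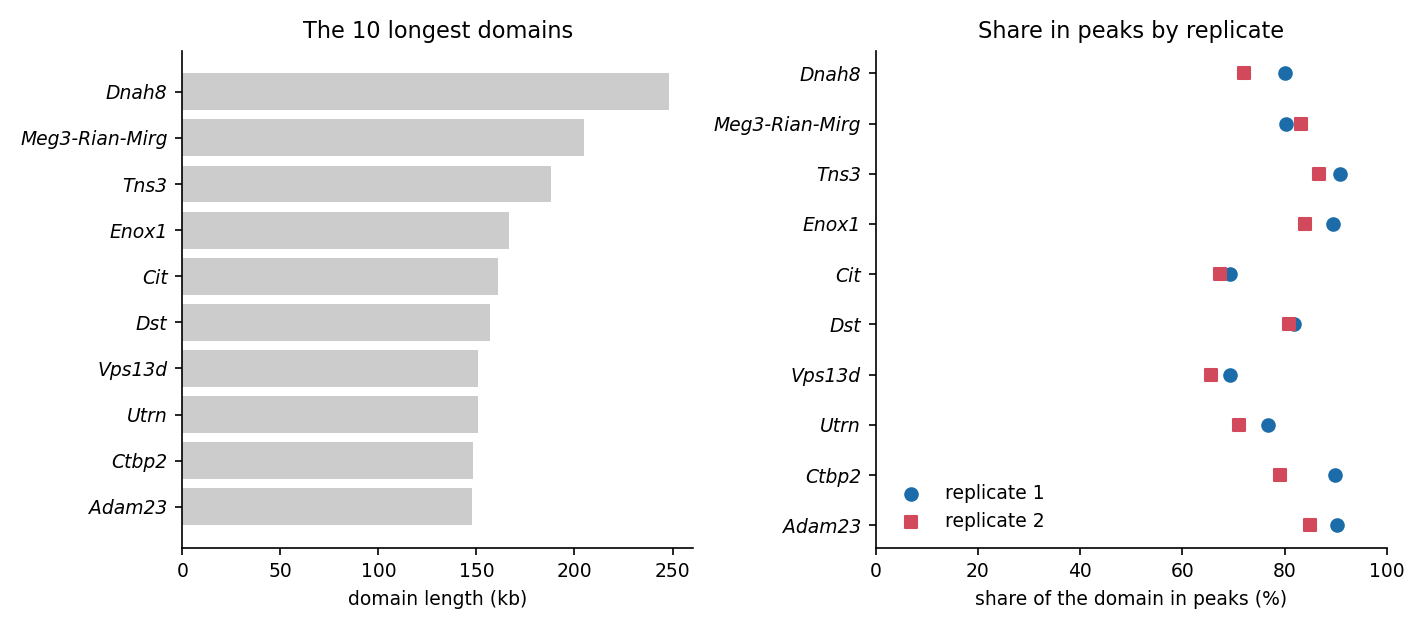
Length in kb (grey bars, left) and share of bases in peaks in percent (right; circles, replicate 1; squares, replicate 2) of the 10 longest domains, named by the leading gene or, for Ctbp2 and the Meg3 to Mirg domain, by genes in the domain. The Dnah8 domain reaches 248.2 kb, and the shares lie between 65.7% (Vps13d, replicate 2) and 90.9% (Tns3, replicate 1).

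The second longest domain, chr12:109544524-109749413, was different in kind: 5.44% of its 204.9 kb lay in a coding gene. On the forward strand it runs through Meg3, Rian and Mirg, maternally expressed long noncoding RNAs of the imprinted Dlk1 to Dio3 region. The retrotransposon-derived coding gene Rtl1 lies on the other strand and is not one of these RNAs. Peaks carry no strand, so coverage over Rtl1 and its start cannot be assigned to either strand. The share of the domain in peaks was 80.3% in replicate 1 and 83.3% in replicate 2. Meg3 (chr12:109541001-109571726) had 85.2% ± 1.66 of its body in peaks (mean ± SD, n = 2). The share was 89.9% ± 3.07 for Rtl1 (chr12:109589193-109600330), 66.1% ± 3.51 for Rian (chr12:109603940-109661716) and 92.6% ± 0.700 for Mirg (chr12:109729764-109749460). The domain began inside Meg3 and ran on through Rtl1 and Rian into Mirg without a break above 3 kb, and Rian was the least covered. The annotated start of Rtl1 lay in peaks over 95.8 and 94.9% of the surrounding window in replicates 1 and 2.

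RefSeq places 57 miRNA hairpins with 112 mature sequences in this domain. All 57 hairpins lay wholly in peaks in replicate 2 and in the pooled set, and 54 did in replicate 1. The seed, bases 2 to 8 of a mature miRNA, is the part that pairs with its targets, and 9 seeds were shared by 2 or more of the mature sequences. The sequences of 4 such groups are shown from RefSeq (GRCm38.p6), with the seed in capitals, to show which hairpins of the cluster share a targeting sequence.
mmu-miR-379-3p: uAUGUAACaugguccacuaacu
mmu-miR-411-3p: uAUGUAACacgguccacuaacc
mmu-miR-379-5p: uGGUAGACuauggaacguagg
mmu-miR-1193-5p: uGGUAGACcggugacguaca
mmu-miR-376b-5p: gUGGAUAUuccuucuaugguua
mmu-miR-376c-5p: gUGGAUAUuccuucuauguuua
mmu-miR-410-5p: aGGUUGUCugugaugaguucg
mmu-miR-494-5p: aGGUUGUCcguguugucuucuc
The pairs share a seed in the order printed. The 2 arms of miR-379 thus share a seed with different partners, miR-411 and miR-1193. The peaks run across the hairpins, so these data say nothing on the level of any mature miRNA.

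In 8 of the 719 domains less than 50% of the bases lay in coding genes. Besides the Rian domain, 2 lay in Pvt1, a long noncoding RNA gene downstream of Myc, with lengths of 99.0 and 50.7 kb. The longer Pvt1 domain had 74.5% in peaks in replicate 1 and 45.7% in replicate 2, and the shorter had 70.6 and 47.0%. Both replicates covered Pvt1, but the replicates differed there by more than in most domains. The Firre domain, along a noncoding RNA gene on the X chromosome, was 52.5 kb long with 57.5 and 63.3% in peaks in replicates 1 and 2. The Lncenc1 domain, named for a noncoding RNA of ES cells, was 50.7 kb long with 81.1 and 80.8%.

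The domain at chr5:33476805-33534238 was 57.4 kb long and overlapped no annotated gene of any kind. It had 78.7% of its bases in peaks in replicate 1 and 81.9% in replicate 2, close to each other and above the median of all the domains. The remaining 2 overlapped zinc finger genes, with 34.6% of the bases in Zfp202 in 1 domain and 8.75% in Zfp281 in the other. The domain of Zfp202 was 61.5 kb long with 77.0 and 76.1% in peaks, and the domain of Zfp281 was 58.9 kb long with 34.7 and 24.3%. The Zfp281 domain was thus among the least covered.

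The share in peaks in the replicates' own sets was high but uneven. The median over the 719 domains was 75.5% in replicate 1 (range 28.4 to 97.9%) and 69.1% in replicate 2 (range 19.1 to 98.5%), or 72.3% ± 4.53 (SD, n = 2). In the pooled set it was 83.0%. The 2642 domains of 20 to 50 kb had medians of 71.8% in replicate 1 and 66.6% in replicate 2. In each replicate the median was higher for the domains longer than 50 kb, by less than the replicates differed. In 41 domains both replicates exceeded 90%, and in 37 both were below 50%.

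The domains with the highest share were ranked by the lower of the replicates. The Acly domain, along the gene of ATP citrate lyase, had 97.8% in peaks in replicate 1 and 98.5% in replicate 2, in 2 pooled peaks over 50.9 kb. The Jade1 domain, along a subunit gene of a histone acetyltransferase complex, had 97.8 and 97.7%. Also among them were the domains of Pitrm1, which encodes a mitochondrial protease, with 97.0 and 96.7%, and Mdn1, which encodes a ribosome assembly ATPase, with 95.6 and 96.3% over 123.7 kb. In each of these 4 domains the replicates differed by less than 2 points.

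At the other end, the Rbm6 domain, along an RNA-binding protein gene, had 37.2% in peaks in replicate 1 and 19.1% in replicate 2. The Cobl domain, along the gene of the actin nucleator cordon-bleu, had 47.1 and 22.5%. The Wwc2 domain, along a gene of Hippo signalling, had 28.4 and 35.7%. The Dmxl1 domain, along a gene of proton pump assembly, had 34.9 and 28.3%. These 4 domains and that of Zfp281 consisted of 32 to 38 pooled peaks each, with a mean fold enrichment of 3.99 to 4.56 (the authors' values), against a median of 7.42 over all the domains.

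Replicate 1 had the higher share in 651 domains and replicate 2 in 68. The median absolute difference was 5.24 points, and 11 domains differed by more than 20 points. The largest difference was in the domain of Esrp1, an epithelial splicing regulator gene, with 72.2% in replicate 1 and 38.3% in replicate 2. Ntn1, which encodes the guidance cue netrin 1, followed with 73.7 and 40.3%. Jarid2, which encodes an accessory subunit of polycomb repressive complex 2, had 72.3 and 40.2% in its shorter domain. The Tpst1 domain, along a tyrosylprotein sulfotransferase gene, had 62.9 and 35.6%. Of the 11 domains, 10 were higher in replicate 1. The exception was Rnf213, a ubiquitin ligase gene, with 62.6% in replicate 1 and 86.3% in replicate 2. Replicate 1 was also higher over the domains at large, and the part of sequencing depth in these differences was not tested, since depth is unknown.

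**Figure D2:**
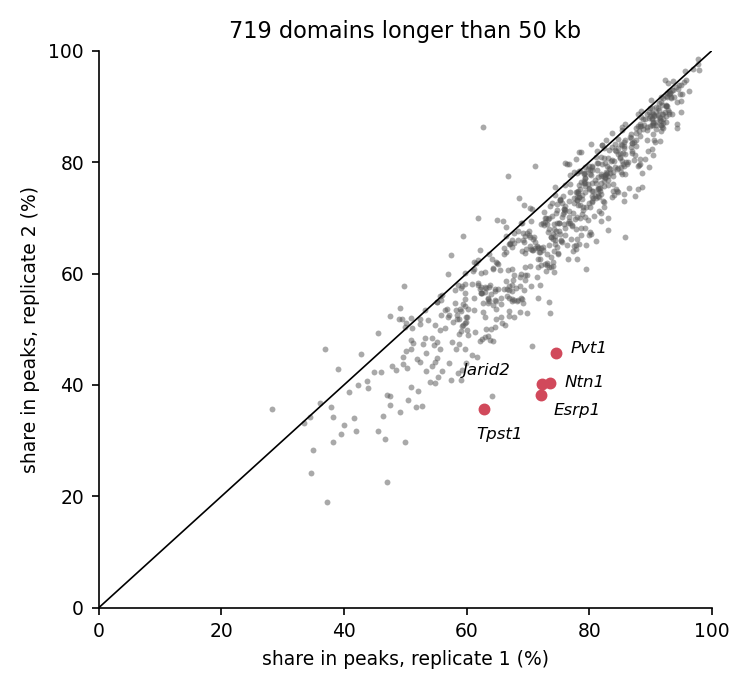
Share of bases in peaks in replicate 1 (x axis, percent) and replicate 2 (y axis, percent), 1 point for each of the 719 domains. The line marks equal shares, 651 points lie below it, and the 5 domains with the largest difference are in red and named.

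Rebuilt from the peaks of 1 replicate, many domains fell into pieces. Over the whole genome, domains longer than 50 kb numbered 542 from replicate 1 alone and 388 from replicate 2 alone. With the same gap of 3 kb, 441 of the 719 remained a single piece in replicate 1, 271 in replicate 2 and 242 in both. A piece longer than 50 kb remained in 523 domains in replicate 1, in 385 in replicate 2 and in 364 in both. In 175 domains neither replicate alone gave a piece of that length. The Dnah8 domain, for example, was in 2 pieces in replicate 1 (the longest 219.3 kb) and in 5 in replicate 2 (the longest 192.0 kb). The Esrp1 domain was whole in replicate 1, with a piece of 52.2 kb, and in 4 pieces in replicate 2, the longest 27.3 kb.

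Most domains followed 1 gene. In 534 of the 719 (74.3%), a single coding gene held at least 80% of the bases. This count includes domains led by read-through models that span other genes, described below. The leading gene is the coding gene with the most bases in a domain, whatever its share. Domains along 1 gene numbered 420 when built from replicate 1 alone and 309 from replicate 2 alone. For domains of 20 to 50 kb the share along 1 gene was 77.3% (2041 of 2642). Counting any overlap, 410 domains touched 1 coding gene, 207 touched 2, 63 touched 3 and 5 touched none. Genes with 50% or more of their length inside the domains were called held. Held genes numbered 932 of 21911 coding genes, or 4.25%, and 1183 were touched. Of these 932, 924 were marked in both replicates. Held genes lie in domains built from pooled peaks of the same reads, so this count was largely set by the selection. It gives no separate support from the replicates. Domains built from replicate 1 alone held 676 genes, and those from replicate 2 alone held 446.

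Among the 5003 coding genes longer than 50 kb, 485 (9.69%) were held. Among the 1553 of these that were marked in both replicates, the same 485 made 31.2%. The other 447 held genes were 50 kb or shorter, and 146 were shorter than 10 kb. The held genes longer than 50 kb had a median of 3.19 exon blocks per 10 kb, against 2.36 for all marked genes and 1.54 for all coding genes of that length. Their median length, 77.96 kb, was close to that of the marked genes, 78.3 kb. The part of exon density in the calling of long domains was not tested.

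Domains that held many genes lay in gene-dense stretches. The domain around Naaladl1, 69.5 kb long on chromosome 19, held 12 coding genes, among them Cdca5 (sororin, a cohesin regulator), Fau (a ribosomal protein fusion), Vps51 and the E3 ligase gene Syvn1. Its share in peaks was 66.4% in replicate 1 and 66.7% in replicate 2. The domain around Fxr2 held 9 genes, including the translation factor gene Eif4a1, Senp3 and Sox15, with 74.0 and 72.7%. The domain around Chd4, a subunit gene of the NuRD remodelling complex, held 6, including Gapdh, Ncapd2 and Nop2, over 98.2 kb with 84.8 and 84.1%. The domains around Tyk2 and Ppp2r5d also held 6 each. Some of the gene models counted here overlap one another, so these counts include read-through models.

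Neighbouring genes held by 1 domain often faced each other with their 3′ ends. Of 310 neighbouring pairs held by the same domain, 148 (47.7%) were tail to tail, 107 (34.5%) ran in the same direction and 55 (17.7%) were head to head. Of the 4560 neighbouring pairs in which both genes were marked, 27.6% were tail to tail and 27.6% head to head. Of all 21890 neighbouring pairs, 23.8% were tail to tail.

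The domains began inside genes and ended just past them. In the 534 domains along 1 gene, the upstream border lay a median of 7.52 kb inside the start of the leading gene (quartiles 1.88 and 32.2 kb). It lay within the first 1 kb in 12 domains and within the first 2 kb in 133. The median was 7.13 kb for domains built from replicate 1 alone and 10.9 kb from replicate 2 alone. Of the 534, 7 began before the annotated start. The downstream border lay a median of 1.06 kb past the gene end (quartiles 1.49 kb before and 3.27 kb past), and 351 domains (65.7%) ran past the end. In domains of 20 to 50 kb the medians were 5.34 kb inside the start and 0.588 kb past the end.

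The borders nearest to a start included those of Kat6b at 0.477 kb, Cdk12 at 0.581 kb, Hat1 at 0.687 kb and Usp7 at 0.740 kb inside. Kat6b and Hat1 encode histone acetyltransferases, Cdk12 a kinase of the polymerase II tail and Usp7 a deubiquitinase. The Cdk12 domain had 76.9% in peaks in replicate 1 and 74.6% in replicate 2, and the Hat1 domain had 90.9 and 87.1%. Replicates were therefore similar in these domains, apart from Kat6b with 77.9 and 64.4%.

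Among the domains along 1 gene, the ones that ran furthest past the end were those of Mtor (26.6 kb), Ep400 (19.8 kb), Kif13b (17.5 kb), Rab3gap2 (16.5 kb) and Atxn2 (16.5 kb). Mtor encodes the kinase of the TOR complexes, and its 134.1 kb domain also held Exosc10, an exosome nuclease gene, and Angptl7. The domain of Ep400, which encodes a remodelling ATPase, also held Noc4l and Ddx51. The Atxn2 domain also held Sh2b3, a signalling adaptor gene. The Kif13b and Rab3gap2 domains ran into Hmbox1 and Iars2, of which 11.2 and 41.5% of the body lay in the domains, so each of the 5 overlapped a neighbouring coding gene.

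**Figure D3:**
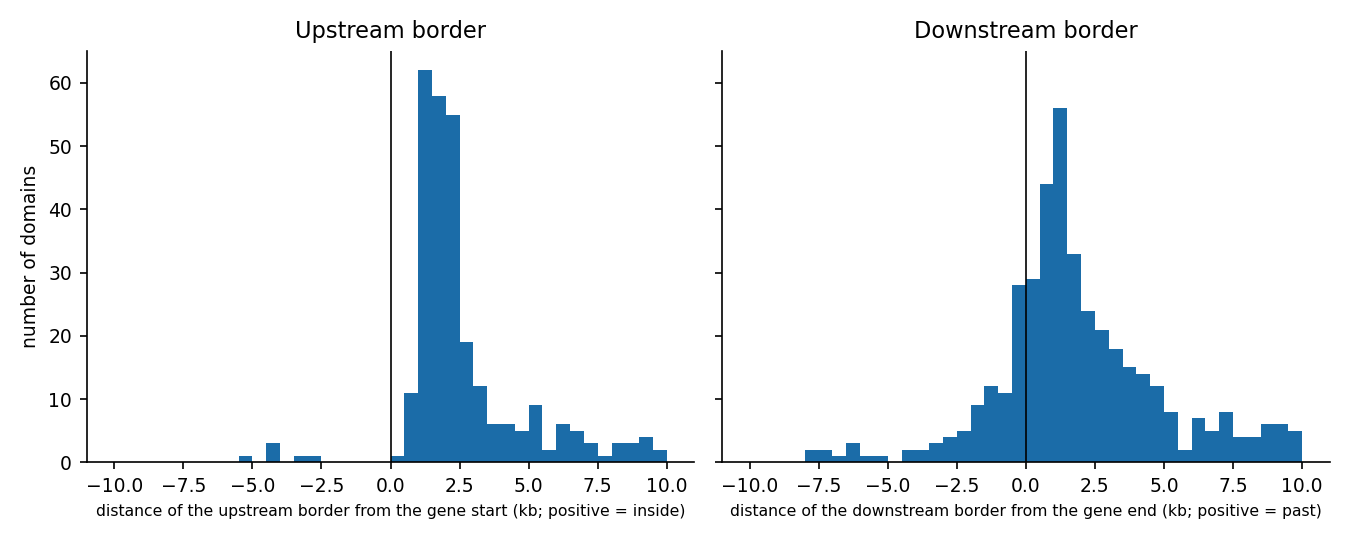
Distance in kb of the upstream border from the start (left; positive values are inside the gene) and of the downstream border from the end (right; positive values are past the gene) of the leading gene, as numbers of domains in bins of 0.5 kb, for domains along 1 gene within 10 kb. Upstream borders pile up between 1 and 2.5 kb inside the start and almost none lie before it, while downstream borders lie on both sides of the gene end.

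With 10 kb as the tolerance, 214 of the 534 domains (40.1%) ran from the start to the end of the gene. Another 192 (35.96%) began further inside and reached the end, 48 began at the start and stopped early, and 49 lay inside at both ends. In 30 domains the border lay more than 10 kb past the end. In 262 of the 279 domains that began at the start, the first exon block lay wholly upstream of the border, so these domains began in or after the first intron.

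Of the 254 domains that began more than 10 kb inside the gene, 54 (21.3%) began within 10 kb after another annotated transcript start of that gene. Such windows made up a mean of 34.2% of the same gene bodies. That mean counts the first 10 kb of each gene, where none of these 254 borders can lie. The shares are therefore not like for like, and they do not show whether other transcript starts were more frequent at these borders. The part of the gene upstream of these domains had a median of 17.8% in pooled peaks, 11.7% in replicate 1 and 7.57% in replicate 2. In 18 of them it held no pooled peak. Tet1, a DNA demethylase gene, is one of these. Its 95.3 kb domain began 12.1 kb inside the gene, 2.24 kb after another transcript start, with 90.9% in peaks in replicate 1 and 89.9% in replicate 2. Foxp1, a forkhead factor gene, had its 99.6 kb domain 496.7 kb inside a gene of 597.4 kb, with 73.4 and 54.9%.

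Of the 97 domains that stopped more than 10 kb before the end, 26 (26.8%) stopped within 5 kb of another annotated transcript end. Windows of that kind made up a mean of 27.3% of those gene bodies. That mean counts the last 5 kb of each gene, where none of these borders can lie, so the shares are not like for like. Downstream of the 97 domains the gene had a median of 45.9% in pooled peaks, 35.3% in replicate 1 and 27.6% in replicate 2. The stretches left out at the 3′ side were thus more covered than those left out at the 5′ side. Stretches left out on either side can hold another domain of the same gene, as in Kat6b and Gli2. In 5 of the 97 no base downstream was covered, among them the domain of Cwc22, a splicing factor gene, which stopped 11.3 kb before the gene end.

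There were 12 genes that each led more than 1 domain, and some of these splits rest on a gap only slightly above 3 kb. In Kat6b, for example, 1 domain ended at chr14:21593939 and the next began at chr14:21596981. Downstream of the first Kat6b domain, 90.3% of the gene lay in pooled peaks. Abcc4, which encodes an organic anion transporter, led 3 domains of 83.0, 74.6 and 55.6 kb. Gli2, a transcription factor gene of hedgehog signalling, led 2 of 132.1 and 77.2 kb. Macf1, a cytoskeletal linker gene, led 2 of 91.7 and 54.5 kb, and Fat1, a giant cadherin gene, led 2 of 55.4 and 52.4 kb. Gm20388, an annotated model of 4435 kb that spans other genes, also led 3, and border distances in it have no meaning for the genes it spans. The same holds for the long Fgfr2 model, which led 2 domains. The domains of both models are included in the counts of domains along 1 gene and in the border distances given above.

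Within the domains along 1 gene, coverage rose from the 5′ to the 3′ side and fell in the last part. Divided into 10 equal parts along the direction of transcription, the first part had 57.3% ± 6.68 of its bases in peaks (SD, n = 2), the ninth 75.4% ± 3.29 and the last 67.5% ± 4.17. The rise was present in both replicates, from 62.1 to 77.7% in replicate 1 and from 52.6 to 73.1% in replicate 2. In the 214 domains that ran from the start to the end it went from 63.5% ± 7.36 to 82.6% ± 2.47. Exons made up 8.49% of the first part, 18.1% of the ninth and 30.7% of the last, where coverage was lower. The part of exons in this profile was not tested. Domains of 20 to 50 kb along 1 gene had a profile of the same shape. Their first part had 55.9% ± 5.89 in peaks, the eighth 70.1% ± 2.75 and the last 58.4% ± 4.75. The rise and fall are thus not particular to the domains longer than 50 kb.

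Gene starts interrupted the mark inside domains, and gene ends did not. The domains held 242 starts and 737 ends of coding genes at least 2 kb from either border. In windows of 500 bp on either side of these starts, 13.2% ± 0.871 of the bases lay in peaks (SD, n = 2), with 13.8% in replicate 1 and 12.6% in replicate 2. Around the ends it was 78.7% ± 3.24, with 81.0 and 76.4%. No base was covered around 176 of the 242 starts (72.7%) and around 23 of the 737 ends (3.12%). Coverage at 2.38 kb before and after the starts was back at 77.3% ± 4.76 and 78.01% ± 5.44. The joining rule bounds the width of this dip, because a gap above 3 kb would have ended the domain.

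At 25 of the 242 starts, at least 50% of the window lay in peaks in both replicates. Some belong to genes that lie inside another gene: Angptl8, a lipid metabolism hormone gene inside Dock6, had 100% in both replicates. Angptl7 inside Mtor had 100% in replicate 1 and 75.4% in replicate 2. The start of Prelid1 next to Nsd1 and that of Il18bp next to Numa1 were covered at 100% in both replicates. Others of the 25 are starts of annotated models with provisional symbols. Among these, Gm28374, AC131692.1, Gm49354, Gm20671 and Gm49776 each had 100% in both replicates. In all, 5 of the 25 lay within another coding gene, against 24 of the 242. These genes were named after their values were seen.

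**Figure D4:**
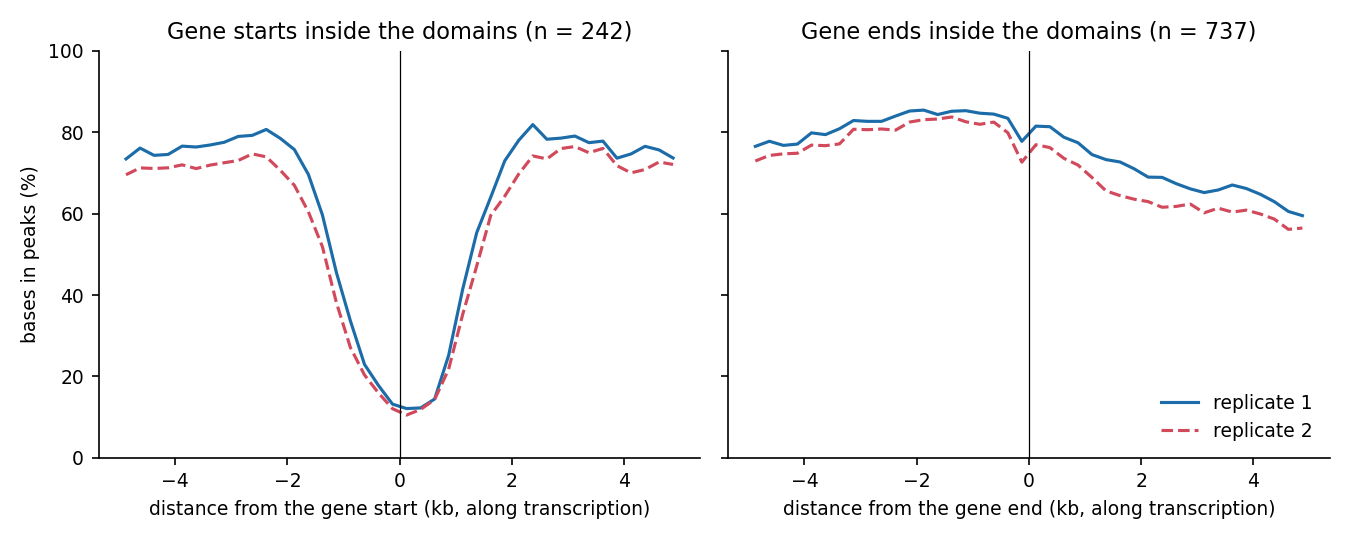
Mean share of bases in peaks (percent) in bins of 250 bp around the 242 coding gene starts (left) and 737 coding gene ends (right) that lie inside the domains, along the direction of transcription (x axis, kb), for replicate 1 (solid) and replicate 2 (dashed). Coverage drops to 12.11 and 10.51% just after the start in replicates 1 and 2, while at the ends it declines without such a gap.

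The gaps inside the domains were short. There were 20737 of them, with a median of 225 bp, and no domain was without one. Of these, 15261 (73.6%) were shorter than 500 bp, and 2506 were at least 1 kb. Soft-masked repeats made up 39.1% of the bases of the gaps and 21.6% of the bases of the peaks, against 36.4% of the genome. The GC content was 40.3% in gaps and 45.0% in peaks, and exons made up 7.60 and 15.0%. In the gaps of at least 1 kb the masked share was 33.3%, below that of all the gaps. The part of repeats in setting the gaps was not tested. The replicates' own peaks covered 3.78% (replicate 1) and 2.36% (replicate 2) of the pooled gap bases.

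The domains were spread over all autosomes. Chromosome 11 had the most, 68, covering 4.00% of its length, and 14.7% of its coding genes longer than 50 kb were held. Chromosome 3 had 15, with 4.598% of such genes held. The X chromosome had 4 domains, and 3 of its 213 coding genes longer than 50 kb (1.41%) were held. These were Huwe1 and Usp9x, which encode a ubiquitin ligase and a deubiquitinase, and Taf1, which encodes the largest subunit of TFIID; the remaining X domain was that of Firre. The Huwe1 domain was 99.7 kb long with 78.2% in peaks in replicate 1 and 74.9% in replicate 2. The cells are male and carry a single X, and the part of copy number in this count was not tested. The Y chromosome had 0 domains.

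Gene lists were counted in the domains, with the held share of all coding genes (4.25%), of those longer than 50 kb (9.69%) and of the marked ones of that length (31.2%) as backgrounds. The median share of the body in the domains was 0% over all coding genes and 0% over those longer than 50 kb. Of 40 genes of chromatin remodellers and large histone modifiers, 23 were held, with a list median of 68.5% of the body in the domains. Among the marked members longer than 50 kb it was 21 of 29. The longest domains here belonged to the remodeller genes Chd6 (114.8 kb), Ep400 (113.1 kb) and Chd2 (108.7 kb) and the acetyltransferase gene Kat6b (112.0 kb). Chd6 had 54.6% of its body in peaks in replicate 1 and 46.7% in replicate 2, and Chd2 had 82.2 and 79.1%.

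Of 30 genes of DNA repair, replication and PI3K-like kinases, 16 were held (list median 62.3%; 15 of 20 marked genes longer than 50 kb). They included Mtor, Trp53bp1, a mediator of break repair, in a domain of 97.4 kb, Trrap, a scaffold of acetyltransferase complexes, in 91.1 kb, and Fancd2, of crosslink repair, in 88.1 kb. Brca1 had 92.8% of its body in peaks in replicate 1 and 91.9% in replicate 2, and Trrap 91.5 and 90.7%. Atm, the kinase gene of the break response, had 55.7 and 52.6%. The catalytic subunit gene Prkdc was not held, with 34.5% of its body in a domain.

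Of 30 large genes of ubiquitin ligases and deubiquitinases, 15 were held (list median 49.6%; 15 of 24 marked genes longer than 50 kb). The longest domains belonged to Hectd4 (115.7 kb), Trip12 (115.1 kb), Birc6 (113.1 kb) and Usp34 (112.4 kb). Trip12 had 81.5% of its body in peaks in replicate 1 and 75.9% in replicate 2, and Usp34 had 49.9 and 40.2%. Nedd4, a ligase of membrane proteins, had 93.4 and 91.5%.

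Of 29 annotated genes of RNA polymerase II elongation, Mediator and RNA processing, 9 were held (list median 0%; 8 of 15 marked genes longer than 50 kb). Drosha, the nuclear processing enzyme of miRNAs, lay in a domain of 130.4 kb and had 84.7% of its body in peaks in replicate 1 and 83.4% in replicate 2. Cnot1, the scaffold of the deadenylase complex, had 91.8 and 86.4% in a domain of 90.05 kb. The FACT subunit gene Supt16 lay in 79.9 kb and Cdk12 in 76.3 kb.

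Pluripotency genes are mostly short, with a median length of 14.1 kb, and 5 of 23 were held although all 23 were marked. The marked share over all coding genes is not given here, so the 23 of 23 lacks a background. The held genes were Nr5a2, Lifr, Rif1, Tfcp2l1 and Stat3. The orphan receptor gene Nr5a2 had 70.0% of its body in peaks in replicate 1 and 58.9% in replicate 2, in a domain of 106.0 kb. The LIF receptor gene Lifr had 47.4 and 45.1%, and the telomere and replication timing factor gene Rif1 91.2 and 90.9%. Esrrb was touched, with 31.2% of its body in a domain.

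Of 24 writers, erasers and readers of H3K36 methylation, 4 were held (list median 0%; 3 of 10 marked genes longer than 50 kb). The 3 of 10 was close to the 31.2% held among all marked coding genes of that length. Nsd1, which writes dimethylation, had 85.7% of its body in peaks in replicate 1 and 82.7% in replicate 2, in a domain of 116.0 kb. Setd2, the writer of the mark itself, had 62.8 and 53.0%. Kdm4b, a demethylase gene, had 80.3 and 73.0%, and Mtf2, a polycomb reader gene, had 85.2 and 82.5%. Of 16 DNA methylation genes, Tet1 was held (1 of 5 marked genes longer than 50 kb).

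Of 30 cytoskeletal cross-linkers, myosins and motors, 6 were held (6 of 19 marked genes longer than 50 kb) and 13 were touched. The 6 of 19 was close to the 31.2% held among all marked coding genes of that length. Besides Tns3, Sptan1, a spectrin gene, lay in a domain of 80.4 kb, and the cytoplasmic dynein gene Dync1h1 in 67.5 kb. Of 26 VPS13, BEACH and DOCK genes of membrane traffic, 4 were held (3 of 7 marked genes longer than 50 kb): Vps13d, Dock5, Dock6 and Nbeal2. Of 20 genes of the extracellular matrix and basement membrane, 4 were held (3 of 7): Hspg2 (perlecan), Fn1 (fibronectin), Nid2 (nidogen) and Lama5 (laminin). Fn1 had 95.8% of its body in peaks in replicate 1 and 94.96% in replicate 2. Of 30 signalling genes, 5 were held (4 of 14, also close to 31.2%): Tsc2, Map4k4, Sos1, Apc and Rictor. Of the 15 axonemal dynein genes, 1 was held (1 of 1). The list median was 0% in each of these 5 lists and for the DNA methylation and pluripotency lists.

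Lists of other cell types held no gene in the domains: 0 of 30 long neuronal genes, 0 of 18 fibroblast and feeder markers, 0 of 16 genes of mesoderm, heart and muscle, and 0 of 16 of primitive endoderm, trophoblast and liver. The held share was 4.25% over all coding genes and 9.69% over those longer than 50 kb. In lists of 16 or 18 genes, 0 held is near the share over all coding genes. Of the 30 long neuronal genes, with a median length of 1137 kb, 0 were marked. In each of the other 3 lists 1 gene was marked, and these were named after their values were seen. The intermediate filament gene Vim had 63.2% of its body in peaks in replicate 1 and 67.4% in replicate 2. The transcription factor gene Tead4 had 26.6 and 26.5%, and Ttn had 28.9 and 30.1%. The muscle gene Ttn, which encodes titin, led a 125.8 kb domain with 82.8% in peaks in replicate 1 and 83.9% in replicate 2. This domain covered 35.6% of its body, began 179.4 kb inside the gene and ran 26.6 kb past its end. The neighbouring coding gene Plekha3, on the other strand, also ends inside this domain. In windows of 500 bp on either side, its end had 90.5 and 37.8% in peaks in replicates 1 and 2. At the Ttn end the shares were 26.5 and 21.9%. Of the 4 lists, that of mesoderm, heart and muscle was the 1 with a gene that led a domain.

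**Figure D5:**
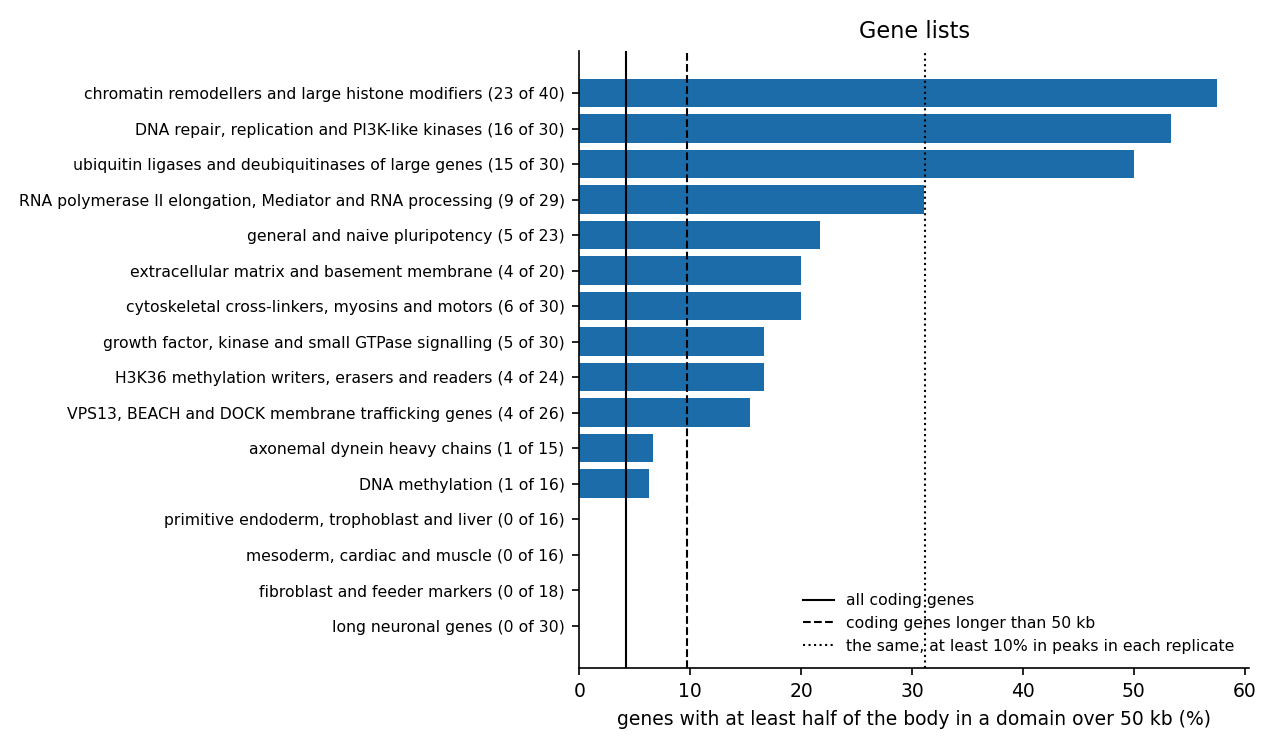
Share of the genes of each list (percent, bars; counts in brackets) with at least 50% of the body in the domains. Vertical lines mark the share over all coding genes (4.25%), over coding genes longer than 50 kb (9.69%) and over those of them marked in both replicates (31.2%).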

How the data were processed

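H3K36me3 ChIP-seq peaks of 2 biological replicates of 1 mouse ES cell line were used. The authors deposited mm10 narrow peak sets, called per replicate and on the pooled replicates, with support from pseudoreplicates (random divisions of the reads). Each deposited peak has a fold enrichment (a ratio over background), and its p-value and q-value are given by the authors as −log10. Not given in the sources used here are the aligner, caller, read length and depth. The control libraries and the mm9 set were not used here.

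Pooled peaks were joined over gaps of at most 3 kb. Covered bases were counted in each replicate's own peaks. Of the GENCODE M21 models, 21911 coding genes were used, the longest record for each symbol. Since pooled and replicate peaks share reads, values are descriptions without tests, and covered shares move with depth.

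Named domains were the 10 longest, the 5 on each side of the threshold, the 5 highest, lowest and most discordant in share, the 5 with most genes, the 5 with borders nearest the start and furthest past the end, and those with the smallest coding share; up to 4 genes were named per list by domain length. Not every domain this rule selects is reported here. Other genes were named after their values were seen. The members and lists were chosen with earlier results of these data known. The joining was tested on simulated data. Alternatives were a q threshold, other peak sets, gaps, lengths and shares, and 1 replicate alone. Python 3.11.15, numpy 2.4.6, pandas 2.3.3 and matplotlib 3.10.9 were used.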

Additional observations from a re-analysis of the deposited data

How the results depend on the processing

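Gap and length rules set the number of domains: 719 became 249 with a gap of 1 kb, 1761 with a gap of 10 kb, 1177 above 40 kb and 207 above 75 kb. The unthresholded pooled set of the other run gave 1079, and 716 of the 719 lay to at least 50% in them. Built from replicate 2 alone it was 388, and from replicate 1 alone 542.

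The share in peaks, 72.3%, became 74.0% in the set found in both replicates, 62.1% in the unthresholded set, 87.6% with a gap of 1 kb, 52.6% with a gap of 10 kb and 80.8 to 81.8% from 1 replicate. In the last setting, domains built from 1 replicate were measured in the peaks of that same replicate, so the measure changed too. Domains along 1 gene, 534, became 217 and 915 with gaps of 1 and 10 kb, and 309 to 420 from 1 replicate.

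The upstream border, 7.52 kb inside, became 3.66 kb in the unthresholded set, 4.23 kb with a gap of 10 kb, 4.24 kb over all domains with a coding gene, and 7.13 to 10.9 kb from 1 replicate. The downstream border, 1.06 kb past, became 1.28 kb in the unthresholded set, 1.30 and 0.877 kb with gaps of 1 and 10 kb, 1.90 kb over all domains with a coding gene, and 0.929 to 1.06 kb from 1 replicate. It stayed past the end in each of these.

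Coding genes held, 932, became 1500 in the unthresholded set, 256 and 3533 with gaps of 1 and 10 kb, 551 at 90% of the body, and 446 to 676 from 1 replicate. Requiring −log10 q of at least 5 left 639 domains, with 364 becoming 297 for pieces above 50 kb in both replicates. The cause of these changes was not tested. No paired analysis was possible because there is 1 group. Depth is unknown, so what it limits could not be measured.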
